A study of Drosophila melanogaster with 3 samples.

Results

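The genes of ecdysteroid synthesis and turnover are described here in wing imaginal discs, the larval epithelia that give rise to the adult wing and the dorsal thorax. They are 9 of the 17611 genes measured, chosen by symbol: nvd, sro, spo, spok, phm, dib and sad, whose enzymes build ecdysone, shd, whose enzyme activates it, and Cyp18a1, whose enzyme inactivates it. The discs came from Drosophila melanogaster larvae labelled w;apGAL4/+, with 1 copy of the apterous-GAL4 driver, which acts in dorsal cells of the disc; the labels name no transgene under its control and also call the genotype wild type. Larvae were kept at 25 °C until they wandered, about 5 days after egg laying, and each of the 3 libraries came from a pool of 100 to 120 discs. All 3 libraries belong to 1 group, so genes are compared with each other and with a fixed level, and the spread between libraries is the error. The labels do not say that the pools came from separate cultures, and this spread may be technical.

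Ecdysteroids are the steroid hormones that trigger moulting and metamorphosis. In larvae the prothoracic gland, a part of the ring gland, takes up dietary sterol and turns it into ecdysone through a chain of enzymes known as the Halloween enzymes, which it expresses together. Peripheral tissues such as the fat body, gut and Malpighian tubules convert ecdysone into the active hormone, and discs respond to that hormone through a nuclear receptor. Inactivation by Cyp18a1 helps to end each pulse of the hormone in its target tissues.

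The 9 genes fell into a group near 1 FPKM (fragments for each kilobase of exon, as scaled between libraries by the authors) and a group far below it. sro, sad, shd and Cyp18a1 stood at 1 FPKM or more in every library, phm and dib lay around or just under that level, and nvd, spok and spo were nearly silent. A level of 1 FPKM in each library, reached by these 4 genes, was reached by 42.9% of all genes, so the count does not set the enzymes apart. With a lower bar of 0.5 FPKM in each library the count was 6 of 9, against 45.6% of all genes, and with 1 FPKM in any library it was 5 of 9, against 47.1%. None of the 9 was without a read in all libraries, against 21.0% of all genes. The median of their mean levels was 0.994 FPKM, against 0.408 FPKM over all 17611 genes and 3.58 FPKM over the 13909 genes with a value above 0. In a one-sided test of each gene's level against 1 FPKM, fitted with limma over those 13909 genes with Benjamini-Hochberg adjustment, 4 of the 9 genes were called, against a background of 53.4%. Tested against 0.5 FPKM, 6 of 9 were called with a background of 56.8%, and against 2 FPKM, 0 of 9 with a background of 50.6% (1 of 9 at an unadjusted limma p under 0.05). The discs are a bulk sample, in which a few cells with much of an RNA and many cells with little cannot be told apart.

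**Figure D1:**
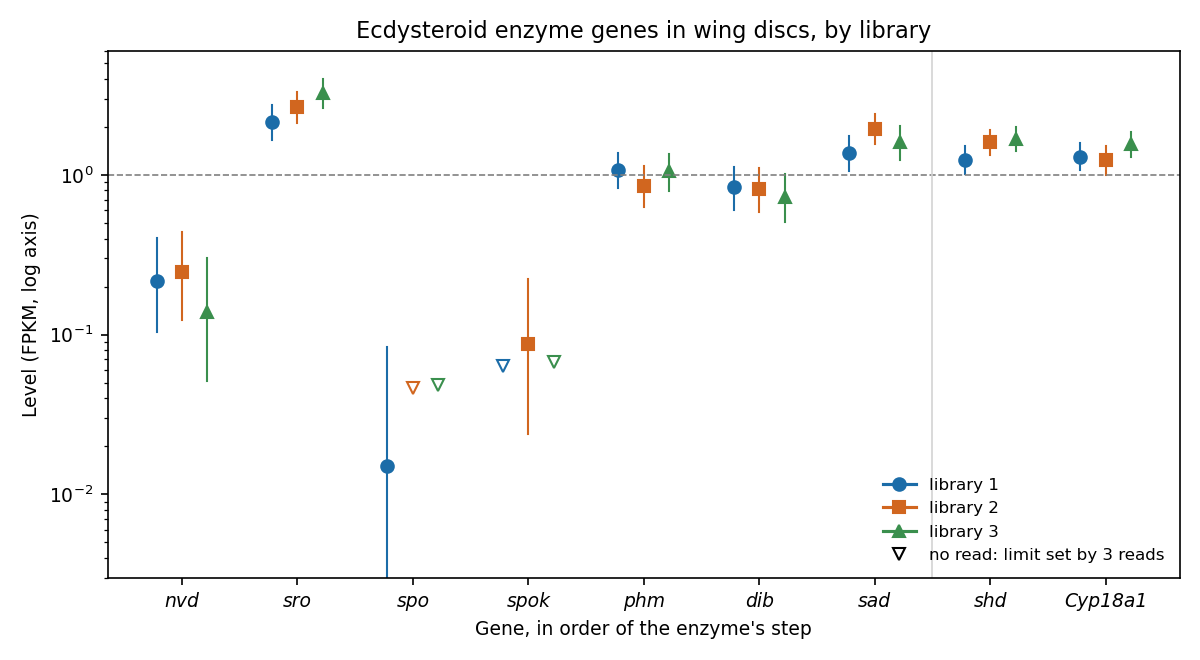
Level in FPKM (log axis) of each enzyme gene in libraries 1, 2 and 3, in the order of the enzymes' steps. Points are the deposited values, vertical lines are exact 95% Poisson intervals of the reads, and open triangles mark the limit that 3 reads allow where a library had none. The dashed line is 1 FPKM, and the grey vertical line divides the enzymes that make ecdysone from shd and Cyp18a1. sro is highest in each library, and spo and spok are lowest.

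The first enzymes of the chain differed widely. nvd encodes an oxygenase that takes the first step, the conversion of cholesterol to its dehydro form. It stood at 0.218, 0.246 and 0.139 FPKM in libraries 1, 2 and 3, which are 10, 11 and 6 reads. No library reached 1 FPKM, and the counting interval of the pooled reads ran from 0.133 to 0.294 FPKM. sro encodes a short-chain dehydrogenase that acts next, in a little understood stretch of the pathway called the black box. It stood at 2.15, 2.67 and 3.26 FPKM, with 66, 80 and 94 reads. This was the highest level of the 9 genes in each library, and its range did not overlap that of any other. Its log2(FPKM + 0.1) exceeded that of 1 FPKM by 1.32 ± 0.14 (SE, n = 3; limma adjusted p = 0.00256), and the call was kept when any library was left out. The log2 ratio of nvd to sro was -3.21 ± 0.53 (SD, n = 3), below 0 in 3 of 3 libraries. The exact sign-flip permutation p was 0.25, the smallest that 3 libraries allow, and 0.5 when adjusted over the 6 pairs of genes compared.

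The paralogs spo and spok encode P450 enzymes of the same black box, spo acting in embryos and ovaries and spok in the larval gland. spo had 1 read in library 1, at 0.0151 FPKM, and none in libraries 2 and 3, where 3 reads would have given 0.0464 and 0.0482 FPKM. spok had 4 reads, all in library 2, at 0.0872 FPKM. In libraries 1 and 3, where it had none, 3 reads would have given 0.0637 and 0.0679 FPKM. The pooled counting intervals, 0.000131 to 0.0288 FPKM for spo and 0.00795 to 0.0747 FPKM for spok, overlapped, so the order of the paralogs was not resolved at this depth. Their log2 ratio with the pseudocount of 0.1 was -0.23 ± 0.59 (SD, n = 3; exact permutation p = 1).

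The enzymes of phm, dib and sad add hydroxyl groups to the steroid in turn and so finish ecdysone. phm, a microsomal P450, stood at 1.07, 0.857 and 1.05 FPKM, with 63, 49 and 58 reads. It lay on both sides of 1 FPKM, and its difference from that level was -0.01 ± 0.08 (log2, SE, n = 3). dib, a mitochondrial P450, stood at 0.836, 0.819 and 0.729 FPKM, with 44, 42 and 36 reads. Every library was below the lowest value of phm, an order that is not kept if the exon bases that dib shares with wit, a gene on the other strand, are left out. sad, a mitochondrial P450 as well, stood at 1.38, 1.96 and 1.60 FPKM, with 65, 90 and 71 reads. It was higher than phm and dib in 3 of 3 libraries, with no overlap, and exceeded 1 FPKM by 0.65 ± 0.12 (log2, SE, n = 3; limma adjusted p = 0.0113). Without library 3 the adjusted p for sad was 0.0692.

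The genes for activation and inactivation of the hormone were present at similar levels. shd encodes the mitochondrial P450 that converts ecdysone into the active hormone. It stood at 1.24, 1.61 and 1.68 FPKM, with 100, 126 and 127 reads, lowest in library 1. Its level exceeded 1 FPKM by 0.54 ± 0.11 (log2, SE, n = 3; limma adjusted p = 0.0152), and the adjusted p was 0.0732 without library 2 and 0.076 without library 3. Cyp18a1 encodes a microsomal P450 that hydroxylates and inactivates the hormone. It stood at 1.31, 1.24 and 1.56 FPKM, with 106, 98 and 119 reads, all above the values of phm. Its level exceeded 1 FPKM by 0.41 ± 0.08 (log2, SE, n = 3; limma adjusted p = 0.0159), with an adjusted p of 0.0612 without library 1 and of 0.0682 when the limma variance prior followed the mean. The log2 ratio of Cyp18a1 to shd was -0.13 ± 0.21 (SD, n = 3), above 0 in library 1 and below it in libraries 2 and 3 (exact permutation p = 0.5, adjusted p = 0.6).

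Pairs of P450 genes from the same cell compartment gave small ratios. Among the mitochondrial enzymes, the log2 ratio of shd to dib was 0.84 ± 0.30 (SD, n = 3), above 0 in 3 of 3 libraries (exact permutation p = 0.25, adjusted p = 0.5). If the exon bases shared with wit are left out, dib stands at 1.05, 1.03 and 0.914 FPKM in libraries 1, 2 and 3. The ratio of shd to dib is then smaller, and shd is still higher in each library. The log2 ratio of shd to sad was -0.11 ± 0.17 and changed sign between libraries (exact permutation p = 0.5, adjusted p = 0.6), and it turned to 0.65 when reads were not divided by gene length. Among the microsomal enzymes, the log2 ratio of Cyp18a1 to phm was 0.42 ± 0.14, above 0 in 3 of 3 libraries (exact permutation p = 0.25, adjusted p = 0.5). Ordered by mean level, the genes ran sro, sad, shd, Cyp18a1, phm, dib, nvd, spok and spo. Among neighbours in this order, the ranges over the 3 libraries overlapped for sad and shd, for shd and Cyp18a1, and for spok and spo, and were apart for the other 5 pairs. Of these, the ranges of phm and dib overlap if exon bases shared with wit are left out, and their pooled counting intervals overlap in any case.

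The enzyme genes lie apart in the genome, with 1 exception. In the annotation (dm6 coordinates) phm, there named phtm, lies on the X chromosome at 18685766 to 18688433 and Cyp18a1 at 18688538 to 18693042, on opposite strands. Their 3′ ends face each other across 104 bases, and no exon of either overlaps another gene. nvd, on 3L at 24324866 to 24401655, and spok, on 3R at 3322810 to 3354486, span 76.8 and 31.7 kb for 1722 and 1767 bases of exon. shd lies on 3L at 14614458 to 14622205, within 590 bases of CG9628, which is read from the same strand and stood at 129 FPKM on average, and sro within 483 bases of kay, at 17.5 FPKM and on the same strand as sro. sro lies on 3R at 29794597 to 29795805, sad on 3R at 11877235 to 11879754, dib on 3L at 4062292 to 4064551 and spo on 3L at 5590083 to 5592571.

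These last 4 genes each share exon sequence with a more highly expressed gene on the other strand, and whether counting used strand is not given in the sources used here. wit, which encodes a receptor of the BMP family, covers 400 bases or 20.3% of the dib exons and stood at 23.2 ± 0.308 FPKM (SD, n = 3). With even coverage, the shared bases of wit would hold 234 to 248 reads in a library, against 36 to 44 reads counted for dib. l(3)psg2 covers 308 bases or 12.4% of spo, enough for 148 to 169 of its own reads, against 0 or 1 counted for spo. Rnb covers 109 bases or 9.45% of sro, enough for 18.4 to 22.9 reads against 66 to 94 counted. CG6962 covers 53 bases or 2.99% of sad, enough for 20.6 to 23.2 reads against 65 to 90 counted. If the shared bases hold none of the counted reads, dib stands at 1.05, 1.03 and 0.914 FPKM in libraries 1, 2 and 3. Its mean is then 0.997 FPKM in place of 0.795 FPKM, against 0.994 FPKM for phm, and the ranges of dib and phm overlap, so their order is not resolved. The means of sro and sad move by less than their SD under the same assumption.

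Most of the enzymes are cytochrome P450s, and within that family sad, shd and Cyp18a1 ranked among the highest 22 genes. The table holds 91 P450 gene symbols, pseudogenes included, of which 7 are ecdysteroid genes and 84 are not. Of the ecdysteroid P450 genes, 3 of 7 were at 1 FPKM or more in each library, against 14 of the other 84. By the limma test 3 of 7 were above 1 FPKM, against 11 of 84. The first share was 42.9% over all genes, and the second was 53.4% over the 13909 genes tested. The 7 stood at or below these shares, and the other P450 genes stood further below them. Of the 84, 5 had no read and so were not tested. With all 17611 genes kept in the test, the share called was 41.7%, near that of the 7. The median of the mean levels was 0.994 FPKM for the 7 and 0.278 FPKM for the 84. Ranked by mean level, sad was at place 18, shd at 21, Cyp18a1 at 22, phm at 30, dib at 34, spok at 75 and spo at 85. The nearest other P450 genes by mean were Cyp4p1 at 1.73 ± 1.31 FPKM above sad and Cyp28d1 at 1.64 ± 0.914 FPKM below it. Cyp12a4 at 1.55 ± 1.70 FPKM and Cyp4ac1 at 1.33 ± 0.700 FPKM enclosed both shd and Cyp18a1. sro, which is not a P450 gene, lay between Cyp301a1 at 2.70 ± 0.146 FPKM and Cyp4e3 at 2.62 ± 3.88 FPKM (SD, n = 3 each). These SDs exceed the gaps between the means, so the places are not firm. The 5 highest P450 genes were Cyp310a1 at 29.2 ± 5.93 FPKM, Cyp9c1 at 27.0 ± 2.30 FPKM, Cyp6v1 at 23.2 ± 1.46 FPKM, Cyp4p2 at 10.7 ± 9.77 FPKM and Cyp6d4 at 9.98 ± 0.241 FPKM (SD, n = 3 each). The ecdysteroid genes gave 3.57%, 4.0% and 3.01% of the summed P450 FPKM in libraries 1, 2 and 3.

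**Figure D2:**
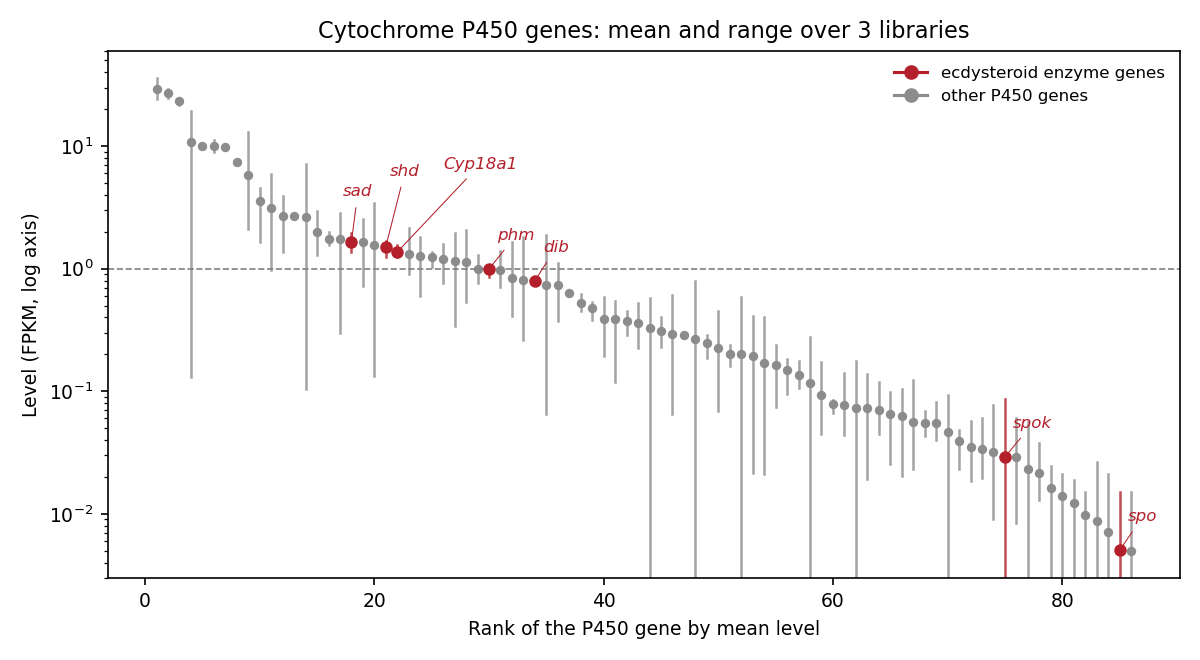
Mean level (points) and range over 3 libraries (lines) of each P450 gene with a read, in FPKM on a log axis, ranked by mean level. The 7 ecdysteroid genes are red and the others grey, lines that reach the lower edge include a library without a read, and the dashed line is 1 FPKM. sad, shd and Cyp18a1 lie at places 18 to 22, and spo and spok near the end.

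The libraries differed in RNA of other tissues, and these differences are set beside those of the enzymes. All 10 wing disc markers, among them vg and nub, were at 1 FPKM or more throughout, and their summed level was 461, 447 and 458 FPKM in libraries 1, 2 and 3. Of 6 fat body markers all were present, summing to 535, 893 and 2439 FPKM. The 7 gut markers summed to 9.65, 902 and 430 FPKM, and the 5 salivary gland markers to 126, 806 and 287 FPKM. Of 3 Malpighian tubule markers matched, CapaR had no read, Uro 8 reads in all and Irk2 6 reads in all. Their summed level was 0.015, 0.29 and 0.032 FPKM. The cuticle enzyme genes ple and Ddc summed to 6.31, 19.7 and 5.81 FPKM. The 5 markers of trachea, the 5 of hemocytes and the 4 of larval muscle kept closer levels, with sums of 372 to 428, 33.4 to 40.9 and 44.7 to 67.5 FPKM.

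The 7 enzyme genes with reads in every library varied less than the summed markers of fat body (4.56-fold between highest and lowest library), gut (93.5-fold) and salivary gland (6.39-fold). They also varied less than the summed Malpighian tubule markers (19.3-fold), a fold that rests on few reads. The summed markers of wing disc (1.03-fold) varied less than each of the 7 enzyme genes. Those of trachea (1.15-fold) and hemocytes (1.23-fold) varied less than each of the 7 except dib. Those of larval muscle (1.51-fold) varied about as much as sro and less than nvd. The marker levels are sums over several genes, whereas nvd had only 6 to 11 reads in a library. The highest library exceeded the lowest by 1.15-fold for dib, 1.25-fold for phm, 1.26-fold for Cyp18a1, 1.35-fold for shd, 1.42-fold for sad, 1.52-fold for sro and 1.77-fold for nvd. sro and shd had the same order of libraries as the fat body markers, lowest in library 1 and highest in library 3. Cyp18a1 was also highest in library 3 but lowest in library 2, and nvd was highest in library 2 and lowest in library 3. sad was highest in library 2, the library with the most gut, salivary gland and cuticle enzyme RNA and the only one with spok reads. phm and dib, which varied no more than counting noise, were highest in library 1, where fat body, gut and salivary gland markers were lowest. The part of these tissues in the enzyme levels was not tested. Against counting noise, the chi-square per degree of freedom of reads between libraries was 0.211 for dib, 0.824 for phm, 1.64 for Cyp18a1, 2.41 for sad, 2.88 for shd and 3.42 for sro. The median over the 1118 genes with a mean of 30 to 150 reads was 3.15, so 5 of these 6 genes varied less than the median gene of like depth. For nvd, with 6 to 11 reads in a library and so outside that range, the value was 0.663. Counting noise alone gives a value of 1 on average, so the order of libraries for dib, phm and nvd was not resolved from it. Values above 1 were not tested against counting noise. The orders of libraries for Cyp18a1, sad, shd and sro are therefore descriptions and may not be resolved either.

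**Figure D3:**
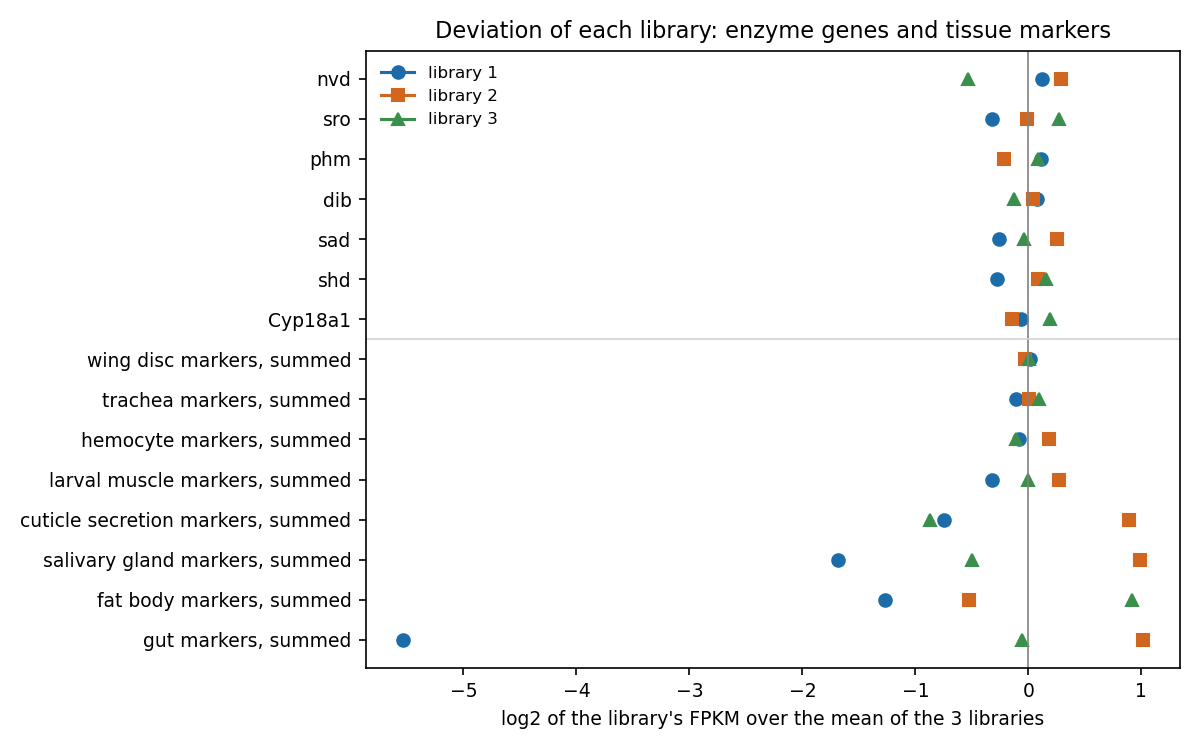
log2 of the FPKM in a library over the mean of the 3 libraries, for the 7 enzyme genes with a read in every library (above the grey line) and for the summed markers of 8 lists (below it). Symbols stand for libraries 1, 2 and 3. The enzyme genes stay within -0.53 to 0.29, while gut markers reach -5.53 in library 1.

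Markers of the ring gland, where larvae make most of the enzymes that build ecdysone, were mostly near 0. tor, the receptor of the hormone that drives the prothoracic gland, stood at 0.0719, 0.0738 and 0.0766 FPKM, with 18 reads in all. ouib, a zinc finger factor that acts on spok in the gland, stood at 0.263, 0.135 and 0.0701 FPKM, with 14 reads in all. Start1, a sterol transfer protein gene listed with them, stood at 18.0 ± 1.0 FPKM (SD, n = 3). Akh, of the corpora cardiaca, averaged 0.264 FPKM with 11 reads, jhamt, of the corpora allata, 0.0241 FPKM with 2 reads, and Ptth, of the brain neurons that reach the gland, 0.114 FPKM. Each of these 6 genes had at least 1 read over the libraries, and the part of ring gland RNA in the enzyme levels was not tested.

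Most other listed genes of the pathway stood above the enzymes. Of 47 such genes in 7 lists, 34 were called above 1 FPKM by limma and the same number was at 1 FPKM or more in each library. Over all genes, 53.4% of those tested were called and 42.9% were at 1 FPKM or more in each library. The median of the 47 was 13.2 FPKM, against 0.994 FPKM for the enzymes and 3.58 FPKM for the genes tested. All 4 redox partner genes were called. Cpr, which passes electrons to microsomal P450s such as phm and Cyp18a1, stood at 39.6 ± 0.548 FPKM, while dare and the ferredoxin genes Fdx1 and Fdx2, which serve the mitochondrial enzymes, stood at 13.5 ± 1.19, 9.75 ± 0.714 and 19.2 ± 2.21 FPKM (SD, n = 3 each). Of 4 further genes linked to synthesis or turnover, 2 were called, Cyp6u1 at 9.85 ± 0.0656 FPKM and CG13604, the counterpart of a silkworm ecdysteroid phosphatase gene, at 19.3 ± 0.369 FPKM. Eo, the ecdysone oxidase gene, stood at 0.129, 0.377 and 0 FPKM, and Cyp6t3 had no read.

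Genes that carry sterol and hormone ranged widely in level. Of 11 sterol supply genes 5 were called, against 53.4% of all genes tested. They were led by Npc1a, which moves cholesterol out of endosomes, at 35.4 ± 0.319 FPKM. Its paralog Npc1b, which acts in sterol uptake by the gut, averaged 0.0535 FPKM. All 3 hormone transport genes were called. Oatp74D, the ecdysone importer, stood at 41.4 ± 1.33 FPKM, above the ABC transporter genes Atet at 6.70 ± 2.09 FPKM and E23 at 3.70 ± 0.761 FPKM (SD, n = 3 each). Atet was highest in library 2, at 9.10 FPKM, against 5.26 FPKM in library 1 and 5.73 FPKM in library 3.

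Of 7 transcription factor genes that act on the enzymes in the prothoracic gland, 6 were called, and all but ouib were above each of the enzymes except that ftz-f1 was below sro. vvl stood at 92.1 ± 3.69 FPKM, mld, a zinc finger factor that acts on nvd and spok, at 27.3 ± 0.743 FPKM, kni at 20.0 ± 0.563 FPKM and ftz-f1 at 2.07 ± 0.153 FPKM (SD, n = 3 each). Several of them also act in the disc itself, as kni and vvl do in wing veins. Of 4 receptor genes 3 were called: EcR at 14.4 ± 0.397 FPKM and usp at 23.2 ± 0.956 FPKM, which form the hormone receptor, and the coactivator gene tai at 14.5 ± 0.712 FPKM. DopEcR, a membrane receptor gene for ecdysteroids and dopamine, had 2 reads in all. Of 14 early or induced genes 11 were called, with a median of 14.4 FPKM over the list. Those not called were Hr3 at 0.456 FPKM, Eip93F at 0.277 FPKM and ImpL1 at 0.860 FPKM.

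**Figure D4:**
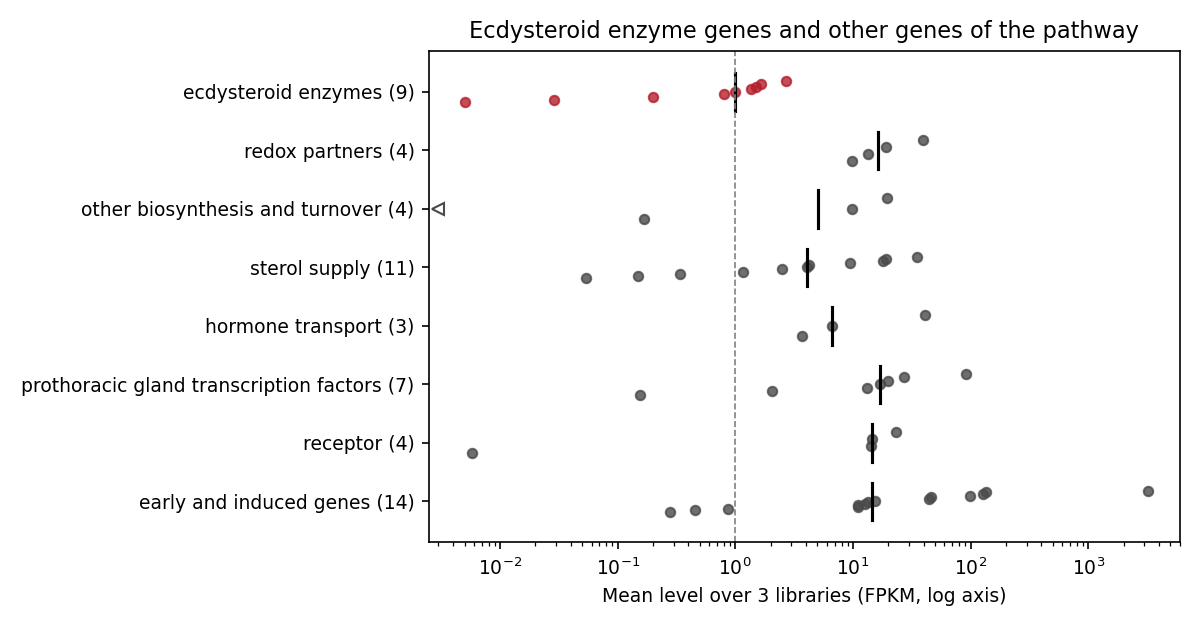
Mean level over 3 libraries (FPKM, log axis) of the 9 enzyme genes (red) and of the genes of 7 other lists of the pathway (grey), with the number of genes in brackets. Each point is a gene, spread in height for visibility, black bars are medians, the open triangle is a gene without a read and the dashed line is 1 FPKM. The enzymes lie between 0.00503 and 2.69 FPKM, and every redox partner lies above them.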

How the data were processed

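The deposited table holds FPKM values made by the authors for 17611 genes, with 1 column for each of the 3 libraries, matched to the samples by number because the column prefix w118 is in no label. The submitters' processing notes name STAR 2.7.6a, featureCounts 1.6.0, DESeq2, CASAVA 1.8 and FastQC 0.11.8 and the dm6 build; which annotation and strand setting were used, and how multiply mapped reads were handled, is not given in the sources used here. FPKM times the merged exon length in Ensembl release 115 (17551 genes matched) gave whole reads (tolerance 0.01) for 99.7% to 99.8% of values, and for every member: 26454949, 26098531 and 25047773 recovered reads in libraries 1, 2 and 3. Exact Poisson intervals (95%) and limits of 3 reads cover counting error only.

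For every gene above 0 in any library, limma 3.58.1 (R 4.3.3) compared the mean of log2(FPKM + 0.1) with that of 1 FPKM, one-sided, with p-values adjusted (Benjamini-Hochberg) over these 13909 genes and a threshold of 0.05; this scale understates differences of low genes. Named are the members, all genes of lists where the text describes them, the 5 highest other P450 genes and the P450 genes nearest to each member at 1 FPKM or more throughout. Members and lists were chosen with earlier results of these data known. Cyp1, a cyclophilin gene, was left out of the P450 genes, and the listed marker symbol Urm matched no gene. Alternatives were pseudocounts, filters, levels, left-out libraries, scaling and exon length.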

Additional observations from a re-analysis of the deposited data

How the results depend on the processing

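No paired comparison of conditions was possible because the series has 1 group. The levels of the enzymes lie close to 1 FPKM, so counts depend on that choice: limma called 0 of 9 genes against 2 FPKM (1 at an unadjusted p under 0.05; 50.6% of genes tested were called) and 6 against 0.5 FPKM (56.8%). Against 1 FPKM it called 2 to 3 with a library left out (54.5% to 55.8%). Against 0.5 FPKM the log2 differences of phm and dib turned to 0.86 and 0.57, and 21 of the other P450 genes were called; against 2 FPKM those of sad, shd and Cyp18a1 turned to -0.28, -0.39 and -0.52. That of phm ranged from -0.067 to 0.080 with a library left out. Leaving out a library put 0 to 1 enzyme genes without a read. At 0.5 FPKM in each library 6 genes were counted as present, at 1 FPKM in any library 5, and at 10 reads in each library 6, against 45.6%, 47.1% and 47.9% of all genes. With FPKM rescaled to a common total in each library (as TPM is), means were 0.383 for nvd, 5.12 for sro, 1.90 for phm, 1.51 for dib, 3.13 for sad, 2.88 for shd and 2.60 for Cyp18a1. Without exon stretches shared with wit, dib stood at 0.997 FPKM and was no longer below phm; this setting and the limma prior that follows the mean were chosen after seeing the data. With a pseudocount of 1 the log2 ratio of shd to dib was 0.48, of Cyp18a1 to phm 0.25 and of nvd to sro -1.61. In reads not divided by length, that of shd to dib was 1.53, of Cyp18a1 to phm 0.93 and of shd to sad 0.65. The ratio of spo to spok ranged from -0.45 to 0.10 with a library left out. At 4 reads or fewer in all, spo and spok could not be ordered at this depth. Beyond what the settings themselves fix (another level, fewer libraries, no division by length), the cause of these shifts was not tested.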

Other observations

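Outside the enzymes, several genes named above or in the same family moved with a library; they were picked after their values were seen. Of the 79 other P450 genes with a read, 46 were highest in library 3, 24 in library 2 and 9 in library 1, against 35.1%, 31.7% and 33.2% of the 13909 genes above 0 and 40.4%, 40.2% and 19.4% of the 1118 genes with a mean of 30 to 150 reads. The summed fat body markers ran in the same order of libraries, at 2439, 893 and 535 FPKM in libraries 3, 2 and 1, and their part in these values was not tested. Cyp4p2 stood at 19.4, 0.13 and 12.7 FPKM in libraries 1, 2 and 3, and its paralog Cyp4p1 at 2.86, 0.298 and 2.05 FPKM, both lowest in library 2. Cyp4e3 stood at 0.104, 0.661 and 7.09 FPKM and Cyp4d1 at 2.25, 2.11 and 13.1 FPKM, both highest in library 3. Among sterol carrier genes, Npc2e stood at 0.0568, 11.4 and 0.665 FPKM and Npc2a at 11.9, 33.5 and 12.3 FPKM, highest in library 2, while Npc2g stood at 3.93, 6.37 and 18.3 FPKM, highest in library 3. Eip93F, an ecdysone-induced transcription factor gene, stood at 0.0355, 0.756 and 0.041 FPKM.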
